A study of Mus musculus with 12 samples.

Results

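The calcium/calmodulin-dependent protein kinase II (CaMKII) genes of the mouse are Camk2a, Camk2b, Camk2d and Camk2g. Every listed AGO2 peak that overlapped one of these 4 genes on its own strand by at least 1 nt was taken, with no threshold on its height, using the gene models of GENCODE M21. This gave 721 peaks out of 713343 listed in 4 libraries, of which 126 lay in Camk2a, 194 in Camk2b, 257 in Camk2d and 144 in Camk2g. No listed peak lay on the opposite strand of any of the 4 genes.

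The libraries came from chimeric AGO2 eCLIP of tibialis anterior muscle, a method in which RNA is cross-linked to protein with ultraviolet light, AGO2 is immunoprecipitated and the bound RNA is sequenced beside an input taken before washing. Male mice of 6 months were used, wild type (WT) or lacking the muscle-enriched microRNA miR-486 (mir-486 KO), with 1 library of each genotype in each of 2 sets, so that n = 2 per genotype. By their labels the WT mice were of strain C57BL/6, and the strain named on the KO libraries is FVB N/J, whereas the methods describe a backcross of the KO onto C57BL/6J, and neither states whether a library held 1 muscle or a pool or whether the sets held different mice. The methods give a number of muscles for each genotype that is larger than its number of libraries here, so what the n of 2 stands for is not settled. A difference between genotypes is therefore also a difference between labelled strains, and the contributions of strain and genotype cannot be told apart. Each peak carries the authors' log2 fold over input and −log10 p, and 4 further lists give the same peaks with the fold of one genotype's library over the other within a set. These were the comparisons made: AGO2 over input in each library, WT against mir-486 KO across the libraries, and WT over mir-486 KO directly within each set.

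CaMKII is a multi-subunit serine/threonine kinase that calcium-bound calmodulin switches on, and that keeps part of its activity by phosphorylating itself once the calcium signal has passed. Skeletal muscle uses mainly the β, γ and δ subunits, encoded by Camk2b, Camk2g and Camk2d, to pass the calcium pulses of contraction to the calcium channels of the store and to class II histone deacetylases. Camk2a is best known as the kinase gene of forebrain neurons. In muscle the same gene yields αKAP, an anchoring protein made from a start inside the gene, which keeps the association part of the protein and lacks the kinase part.

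The numbers of listed peaks differed by library more than by genotype. All libraries together listed 92451 peaks in WT set 1, 119859 in mir-486 KO set 1, 244814 in WT set 2 and 256219 in mir-486 KO set 2. The read depth behind each list is unknown. The 4 genes held 92, 149, 237 and 243 of them in that order. All 5 skeletal muscle fibre markers had exonic peaks in every library, and none of the 5 neuron markers (Snap25, Syn1, Syt1, Rbfox3 and Nefl) had one in any library. Exonic peaks were listed for 4 or 5 of 5 Schwann cell markers, 4 or 5 of 5 smooth muscle markers, 5 of 5 endothelial and 5 of 5 fibroblast markers, and the part of these cells in the results was not tested. In bulk muscle, fewer cells of a type and less RNA per cell cannot be told apart.

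Few of the peaks were strongly enriched. A peak was called enriched at a log2 fold over input of at least 3 together with a −log10 p of at least 3. In WT set 1, 3 of 92 peaks of the 4 genes were enriched (3.26%), against 3.57% of all listed peaks. In mir-486 KO set 1 the count was 0 of 149, against 0.848% of all. WT set 2 had 2 of 237 (0.844%) against 1.42%, and mir-486 KO set 2 had 2 of 243 (0.823%) against 1.23%. Each count was within about 1 or 2 peaks of the share over all peaks, so the family did not stand apart. The enriched peaks lay in Camk2d and Camk2b, and 0 peaks of Camk2a or Camk2g were enriched in any library.

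**Figure D1:**
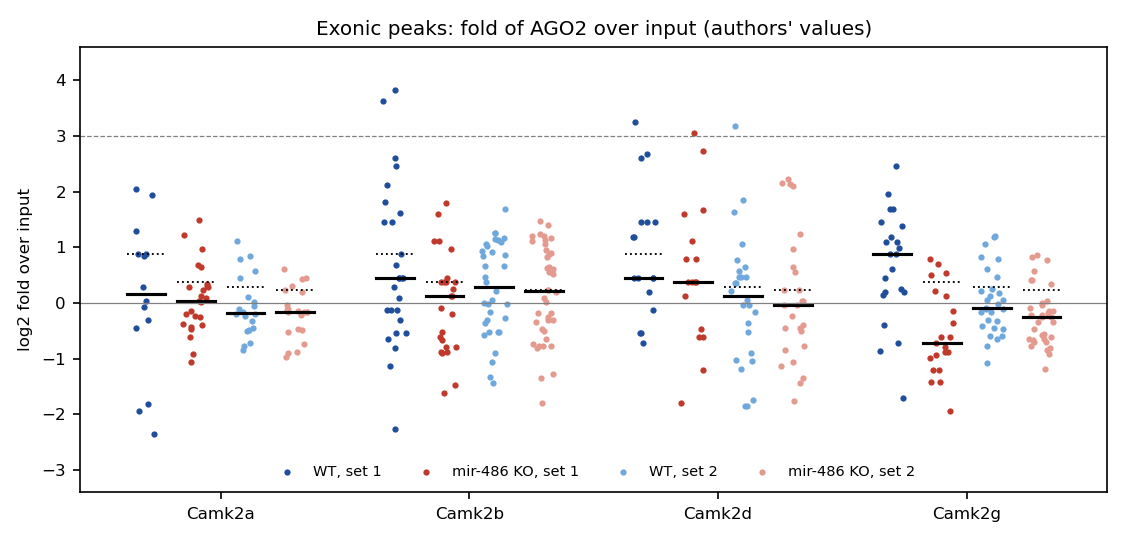
Authors' log2 fold of AGO2 over input (y axis) for every exonic peak of the 4 genes, 1 point per peak, by gene and library. Solid bars are medians for the gene, dotted bars the median of all exonic peaks of that library, and the dashed line marks a log2 fold of 3. Most points sit between −2 and 2, with the few peaks above 3 in Camk2b and Camk2d.

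Camk2d, which encodes the δ subunit, lies on the plus strand at chr3:126596302-126846326 (GRCm38). One stretch at the start of its 3′ UTR, chr3:126842761-126843089, was above input in every library and was the exonic stretch of the 4 genes with the highest floor across libraries, the smallest of its 4 log2 folds being 1.86. In WT set 1 its main peak had a log2 fold over input of 3.25 (−log10 p 8.53). In mir-486 KO set 1 the value was 2.74 (4.20), in WT set 2 it was 1.86 (13.6) and in mir-486 KO set 2 it was 2.16 (12.1). It was the only one of the 43 exonic stretches listed in all 4 libraries whose −log10 p reached 3 in each of them. The genotypes overlapped, with the highest value in a WT library and the lowest in the other WT library.

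That stretch contains a perfect match to the seed of the miR-30 family. A seed match is the stretch of mRNA complementary to bases 2 to 8 of a microRNA, the part that directs AGO2 to its targets, and an A opposite the first base of the microRNA strengthens it. The word TGTTTAC lies at chr3:126842946-126842952, inside the peak of all 4 libraries, and is followed by an A. It is the only miR-30 word in the 3′ UTRs of the 4 genes. The microRNA and the site are shown so that their complementarity can be read, with the seed and the matching bases, including the A, in capitals.
mmu-miR-30a-5p: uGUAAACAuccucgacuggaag
Camk2d 3′ UTR, chr3:126842935-126842964, plus strand: ttcctgtacatTGTTTACActccagctacc

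In the direct lists this site was higher in WT than in mir-486 KO in set 1, by a log2 of 1.47 at the WT peak (−log10 p 7.99) and of 1.36 with the sign turned at the KO peak, where KO over WT was −1.36. In set 2 the values were 0.32 at the WT peak (−log10 p 1.41) and −0.34 for KO over WT at the KO peak. In the direct lists the direction was thus the same in both sets and the size was smaller in set 2. Over input, however, mir-486 KO was higher than WT in set 2, at 2.16 against 1.86. None of these folds reached the log2 threshold of 3. Over all exonic WT peaks of set 1 the median log2 WT over KO was 0.74. Over all 3′ UTR peaks called in WT it was 0.54 in set 1 and 0.30 in set 2, so the set 2 value of 0.32 was near the background. Over those called in mir-486 KO, sign turned, it was −0.43 and 0.12. The word was present in 1 of 22 3′ UTR peaks of the 4 genes in WT set 1 (4.55%), counting 25 nt on each side of a peak and searching the transcribed strand alone, against 4.01% of all 3′ UTR peaks of that library. Over the 4 libraries, 4 of the 100 3′ UTR peaks of the 4 genes held a miR-30 word, 5 a miR-29 word, 3 a miR-22 word and 0 a word of miR-1/206, miR-133, let-7 or miR-26. Over all 3′ UTR peaks the shares by library were 2.71% to 4.01% for miR-30, 2.81% to 4.39% for miR-29, 2.19% to 2.80% for miR-22, 2.92% to 4.42% for miR-1/206, 1.81% to 2.69% for miR-133, 1.70% to 2.69% for let-7 and 1.61% to 2.35% for miR-26, so these counts, the zeros included, were within a few peaks of the background. The miR-29 and miR-22 words lay in 3′ UTR peaks of Camk2b and Camk2g with log2 folds over input of −0.59 to 0.71, so the miR-30 word of Camk2d was the one under a strong peak.

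**Figure D2:**
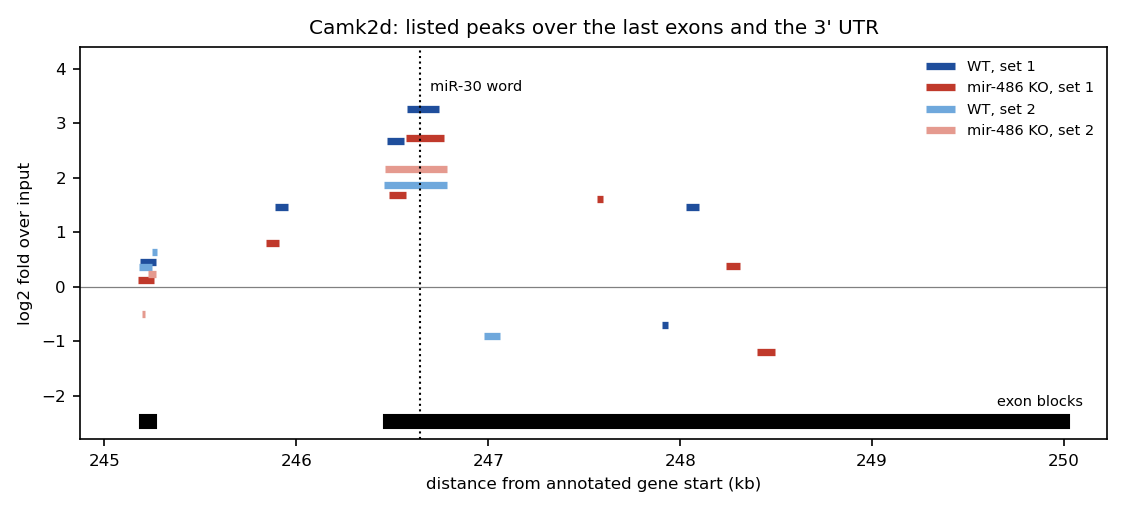
Listed peaks over the last exons and the 3′ UTR of Camk2d. Each bar spans a peak along the distance from the annotated gene start (x axis, kb) at its log2 fold over input (y axis), coloured by library, with exon blocks in black and the miR-30 word as a dotted line. Peaks of all 4 libraries cover the word, with folds from 1.86 to 3.25, and the rest of the 3′ UTR holds scattered peaks of single libraries.

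The remainder of the long 3′ UTR of Camk2d was sparsely covered. Listed peaks covered between 5.59% and 7.95% of its 6279 nt, against 32.9% to 74.0% of the coding bases. A coding peak near the end of the gene, at chr3:126840143-126840364, was also above input in each library. Its log2 fold was 2.61 in WT set 1 (−log10 p 3.68), 3.05 in mir-486 KO set 1 (1.90), 0.77 in WT set 2 (1.47) and 2.10 in mir-486 KO set 2 (3.85). The KO value exceeded the WT value within both sets in these folds over input, whereas the direct lists gave WT over KO as 1.16 in set 1 and 0.30 in set 2 at the WT peaks. Folds over input and direct folds at the WT peaks thus pointed in opposite directions for this exon. Over all coding WT peaks the median direct fold was also above 0, at 0.82 in set 1 and 0.05 in set 2.

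The strongest enrichment of the whole family lay in a Camk2d intron, at chr3:126659348-126659505, 63046 nt from the gene start, between coding exon blocks 2 and 3 and in no other annotated gene of that strand. In WT set 2 it was listed as adjoining peaks with log2 folds over input of 4.23 (−log10 p 5.03) and 4.12 (4.56). In mir-486 KO set 2 the pair had log2 folds of 3.88 and 3.88 (−log10 p 3.86 each). In set 1 the stretch was also listed, at 1.46 in WT (0.35) and 0.80 in mir-486 KO (0), so the enrichment call rests on set 2. Direct WT over KO folds in set 2 were 0.18 and 0.07 at the WT peaks, near 0.

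The intronic stretch contains ACATTCC, at chr3:126659374-126659380, followed by an A, which is the seed match of miR-1 and miR-206, the microRNAs most characteristic of striated muscle. They share a seed, and miR-206 stands for both here. The set 2 peaks hold the whole word, and the set 1 peaks begin 1 base into it. In the sequence of the stretch the match and its A are in capitals.
mmu-miR-206-3p: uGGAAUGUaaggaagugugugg
Camk2d intron, chr3:126659348-126659505, plus strand: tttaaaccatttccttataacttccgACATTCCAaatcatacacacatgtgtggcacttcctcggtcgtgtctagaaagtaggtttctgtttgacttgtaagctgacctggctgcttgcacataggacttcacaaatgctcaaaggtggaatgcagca

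The same word occurred in other intronic peaks of the family, none of which was enriched. In mir-486 KO set 2, 8 of 121 intronic peaks of the 4 genes held it (6.61%), against 4.65% of all intronic peaks of that library, and in WT set 2 the counts were 4 of 128 (3.12%) against 5.47%. The shares stood on either side of the background. A further Camk2d match followed by an A, at chr3:126805029-126805035 within an exon of a noncoding transcript, lay in a peak of each library with log2 folds of 1.20 in WT set 1, 0.38 in mir-486 KO set 1, 3.17 in WT set 2 and −0.03 in mir-486 KO set 2. The −log10 p of the highest of these was 1.94, under the threshold.

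Introns made up most of the listed Camk2d peaks. In WT set 2, 75 of 101 peaks were intronic (74.3%, 95% Wilson interval 65.0% to 81.8%), and in mir-486 KO set 2, 64 of 90 (71.1%, 61.0% to 79.5%), against 41.7% and 43.1% of all listed peaks. In set 1 the counts were 6 of 23 in WT (26.1%, 12.5% to 46.5%) and 26 of 43 in mir-486 KO (60.5%, 45.6% to 73.6%), against 21.4% and 39.5%. These intervals cover counting error only. Camk2d is the longest of the 4 genes at 250025 nt. Per 10 kb of intron it held 0.26, 1.14, 3.30 and 2.81 intronic peaks in WT set 1, mir-486 KO set 1, WT set 2 and mir-486 KO set 2. In the same order Camk2a held 0.18, 2.54, 2.00 and 3.45, Camk2b 0, 1.71, 3.20 and 2.85, and Camk2g 0.95, 1.14, 2.65 and 2.46. Per length of intron Camk2d was thus the highest in WT set 2 alone, and Camk2a was the highest in both KO libraries. Most of these stretches were seen once: 111 of 137 merged intronic stretches of Camk2d were listed in 1 library only.

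**Figure D3:**
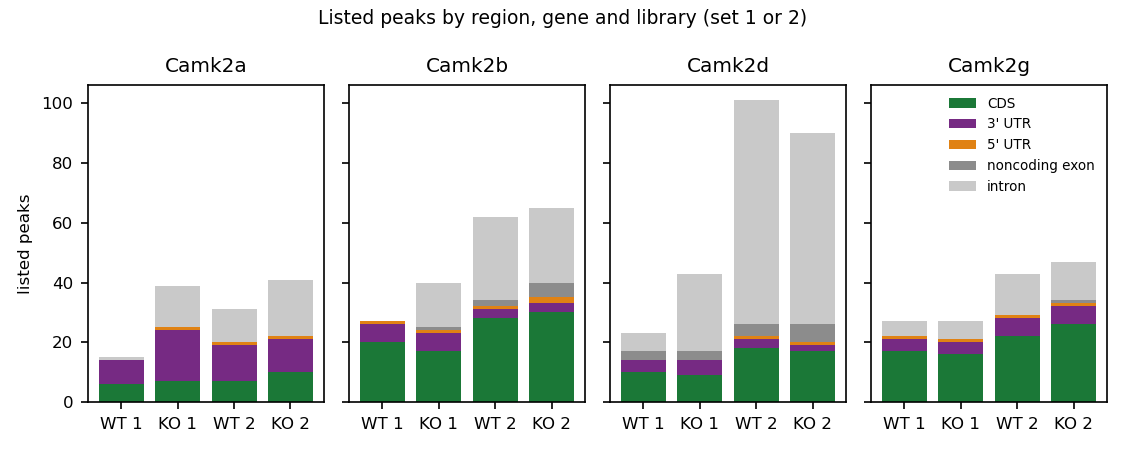
Number of listed peaks (y axis) by gene, library (x axis, WT or mir-486 KO, set 1 or 2) and region (colours). Intronic peaks make up most of the difference between libraries, from 6 in WT set 1 to 75 in WT set 2 for Camk2d.

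Camk2b encodes the β subunit and lies on the minus strand at chr11:5969644-6066362. AGO2 peaks lay along most of its coding sequence. They were found on 19 of 24 coding exon blocks in WT set 1, 16 in mir-486 KO set 1, 22 in WT set 2 and 23 in mir-486 KO set 2, where an exon block joins the overlapping exons of all coding transcripts. Of these peaks, 2 were enriched, both in WT set 1. The coding peak at chr11:6015447-6015512 had log2 folds over input of 3.83 in WT set 1 (−log10 p 3.79), 1.80 in mir-486 KO set 1 (0.92), 1.06 in WT set 2 (1.45) and 1.21 in mir-486 KO set 2 (1.94). All libraries were above input there. The coding peak at chr11:6001337-6001395 had log2 folds of 3.63 in WT set 1 (−log10 p 3.15), 0.38 in mir-486 KO set 1 (0), 1.25 in WT set 2 (1.24) and 1.07 in mir-486 KO set 2 (1.19). The excess of WT over mir-486 KO at these exons, log2 1.03 and 1.59 at the WT peaks of set 1, was −0.29 and −0.34 in set 2. Both peaks were named for passing the thresholds in WT set 1, a choice that favours a WT excess in that set. Over all coding WT peaks the median WT over KO was 0.82 in set 1 and 0.05 in set 2.

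Another coding stretch of Camk2b, chr11:5989573-5989671, holds the seed match of miR-133, another microRNA of striated muscle. Its log2 fold over input was 2.61 in WT set 1 (−log10 p 3.68), 0.12 in mir-486 KO set 1 (0), 1.69 in WT set 2 (3.48) and 1.48 in mir-486 KO set 2 (2.71). Direct WT over KO was 2.02 in set 1 (−log10 p 4.81) and 0.07 in set 2. The genotypes were therefore apart in set 1 and close in set 2. All coding WT peaks had a median direct fold of 0.82 in set 1 and 0.05 in set 2, so part of the set 1 gap was shared. The word GGACCAA at chr11:5989613-5989619 was found in 1 of 53 coding peaks of the 4 genes in WT set 1 (1.89%), against 2.17% of all coding peaks of that library. The matching 7 bases are in capitals, and the base after them is not an A.
mmu-miR-133b-3p: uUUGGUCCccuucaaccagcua
Camk2b coding exon, chr11:5989601-5989630, minus strand: ttctgggatgaGGACCAAcacaagctgtac

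In contrast to the coding exons, the 3′ UTR of Camk2b lay below input. Of its peaks, 1 of 6 was above input in WT set 1, 0 of 6 in mir-486 KO set 1, 0 of 3 in WT set 2 and 0 of 3 in mir-486 KO set 2. Their median log2 folds were −0.59, −0.77, −1.06 and −1.28 in that order. Over all 3′ UTR peaks the medians were 0.87, 0.61, 0.60 and 0.56. The medians of the coding peaks of Camk2b were 0.57, 0.26, 0.43 and 0.05. Camk2b thus had its higher AGO2 folds in the coding exons in each library, whereas over all peaks the 3′ UTR medians were the higher ones.

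Camk2b also held the only peaks of the family past both thresholds in a direct list. An adjoining pair in its first intron, chr11:6065272-6065274 and chr11:6065275-6065286, was higher in mir-486 KO than WT in set 1 by a log2 of 4.01 (−log10 p 3.96). The peaks are 3 and 12 nt long, share the same value, and were above input by a log2 of 2.97 (−log10 p 1.67). No peak was listed there in the other 3 libraries. They made up 2 of the 149 peaks in the KO over WT list of set 1 (1.34%), against 0.179% of all peaks of that list. In the other direct lists 0 peaks of the 4 genes passed, against 0.469% of all peaks for WT over KO in set 1, 0.0192% for WT over KO in set 2 and 0.0144% for KO over WT in set 2.

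Camk2g encodes the γ subunit and lies on the minus strand at chr14:20734875-20794088. It had peaks along the whole coding sequence, on 18 of 23 coding exon blocks in WT set 1, 16 in mir-486 KO set 1, 20 in WT set 2 and 21 in mir-486 KO set 2. Exonic peaks were also the most repeatable here: 15 of 28 merged exonic stretches were listed in all 4 libraries, beside 15 of 34 in Camk2b, 8 of 17 in Camk2a and 5 of 34 in Camk2d. Their folds were low. No Camk2g stretch was above input in all 4 libraries, and the highest exonic log2 fold was 2.46, in WT set 1.

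Camk2g showed the widest gap between genotypes of the 4 genes, in set 1. The median log2 fold over input of its exonic peaks was 0.87 in WT set 1, −0.72 in mir-486 KO set 1, −0.08 in WT set 2 and −0.25 in mir-486 KO set 2. The mean of the WT libraries was 0.40 ± 0.68 (SD, n = 2) and of the mir-486 KO libraries −0.48 ± 0.33 (SD, n = 2). WT exceeded mir-486 KO by 0.88 in the mean, by 1.59 within set 1 and by 0.17 within set 2, and both WT values lay above both KO values. The two-sided exact permutation p was 0.33 with n = 2 per genotype, the smallest this design can give, and 0.667 after Benjamini-Hochberg adjustment over the 4 genes. Over all exonic peaks WT exceeded KO by 0.49 in set 1 and 0.04 in set 2. For the 5 skeletal muscle fibre markers the median of the gene medians was 1.43 in WT set 1 and −0.61 in mir-486 KO set 1. In set 2 it was 0.09 in WT and 0.14 in mir-486 KO. The gap of set 1 was thus not particular to Camk2g.

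The Camk2g exons with the highest folds were not the same in each library. In WT set 1 the highest was the coding peak at chr14:20738855-20738948, with a log2 fold over input of 2.46 (−log10 p 1.12). The peaks over it in the other libraries had 0.12 in mir-486 KO set 1, at most −0.41 in WT set 2 and 0.34 in mir-486 KO set 2. In WT set 2 the highest was the coding stretch at chr14:20765917-20766015, with a log2 fold of 1.20 (−log10 p 1.57).

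At that stretch both WT libraries were above input and both mir-486 KO libraries below it. WT set 1 had a log2 fold over input of 1.10 (−log10 p 0.52), mir-486 KO set 1 had −0.62, and mir-486 KO set 2 had −0.70 and −0.03 at its 2 adjoining peaks. The direct lists gave WT over KO as 1.16 in set 1 (−log10 p 0.93) and 0.21 in set 2 (0.19) at the peaks called in WT. At those called in the KO, KO over WT was −1.48 in set 1 and −0.57 and 0.06 in set 2. None of these values passed a threshold. The stretch was named for its height in WT set 2. Of all coding WT peaks of Camk2g, 14 of 17 were above the KO in the direct list of set 1 (82.4%), against 83.2% of all coding peaks, and 9 of 22 in that of set 2 (40.9%), against 52.7%. The highest −log10 p in a direct list for an exonic Camk2g peak was 2.52, at an exon of a noncoding transcript, chr14:20754681-20754832, listed in mir-486 KO set 2 alone, where KO over WT was 2.38 and the fold over input −0.13.

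Camk2a lies on the plus strand at chr18:60925618-60988152, and the study examined it as a miR-486 target. AGO2 peaks were confined to its 3′ part in the 4 libraries. GENCODE M21 lists 2 short coding transcripts of this gene, Camk2a-202 and Camk2a-204, the earlier of which starts 37936 nt into the gene, after 60.7% of its length. Upstream of that start, 0 of 126 Camk2a peaks were listed, and 0 of 14 exon blocks carried a peak in any library. Downstream of it, 7 of 7 exon blocks carried a peak in every one of the 4 libraries. The first listed peak began 37974 nt into the gene in WT set 2, 38005 nt in mir-486 KO set 2, 38044 nt in mir-486 KO set 1 and 38136 nt in WT set 1.

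The other members did not share that gap. The first 14 coding exon blocks of Camk2b held a peak on 12, 11, 13 and 13 of them in WT set 1, mir-486 KO set 1, WT set 2 and mir-486 KO set 2. In Camk2g the counts were 12, 12, 13 and 13, and in Camk2d they were 6, 5, 12 and 11. The upstream exon blocks of Camk2a are absent from both short transcripts by construction. A list of called peaks gives no level where it lists nothing, so these counts describe calls and not the amount of RNA. The intronic peaks of Camk2a, 1, 14, 11 and 19 in the same order, also all lay after the short start.

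**Figure D4:**
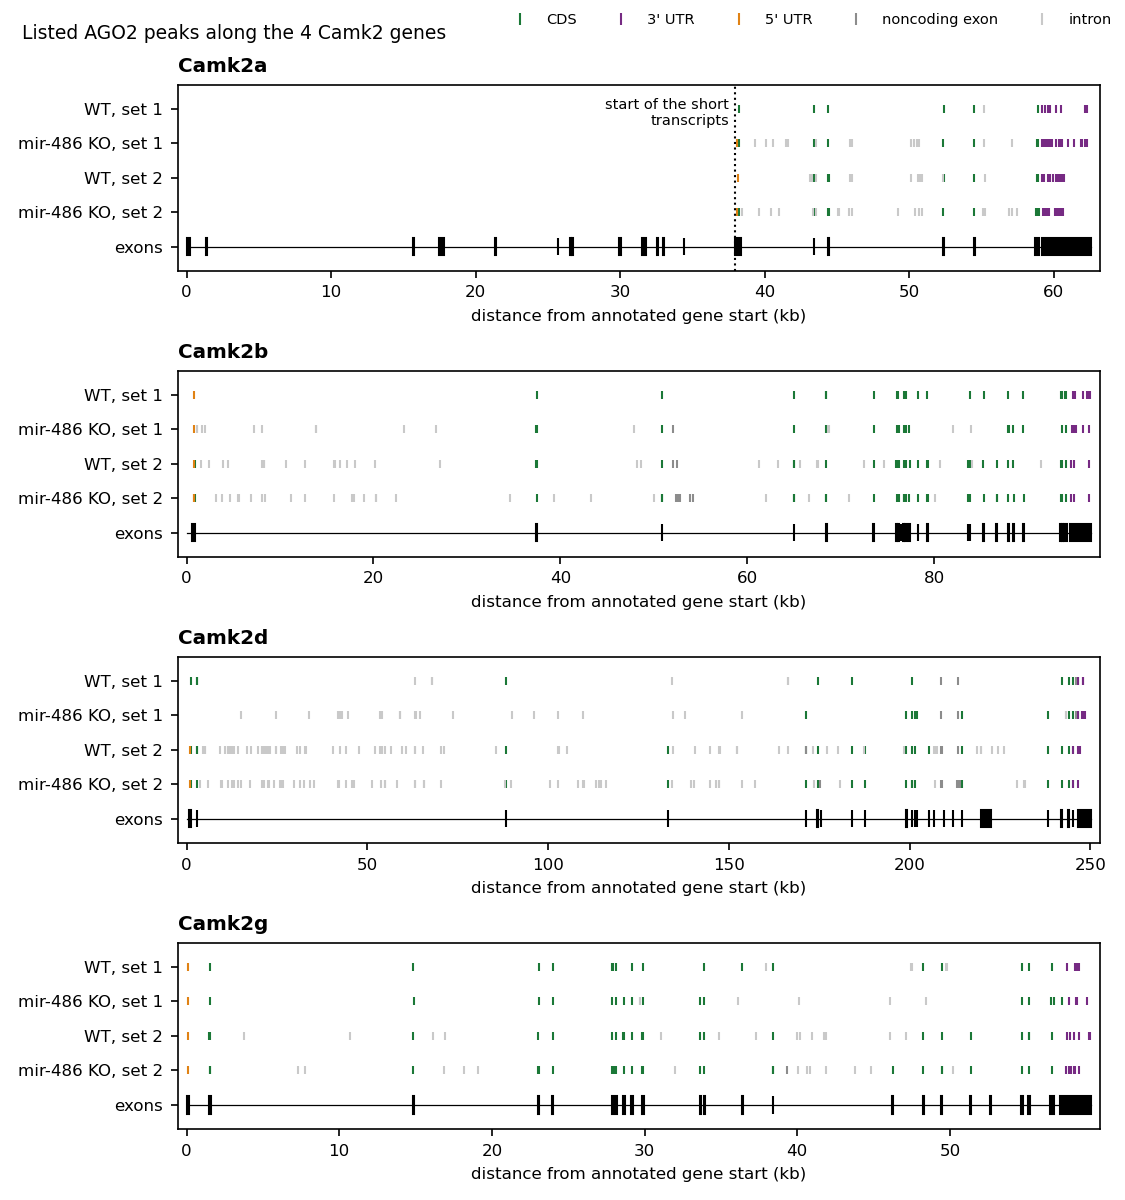
Position of every listed peak of the 4 genes along the distance from the annotated gene start (x axis, kb), 1 row per library, coloured by region, over the merged exons of coding transcripts (black). In Camk2a the peaks begin at the dotted line, the start of the short transcripts, 37936 nt into the gene, while in Camk2b and Camk2g every library has peaks on exons near the gene start.

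Within that 3′ part, the exon that opens the short transcripts carried the highest Camk2a fold of WT set 1, a log2 of 2.06 over input (−log10 p 7.67) and of 1.18 over mir-486 KO (7.59). The peaks of the other libraries on this exon had highest log2 folds of 0.97 in mir-486 KO set 1, −0.11 in WT set 2 and −0.12 in mir-486 KO set 2. In set 2 WT over KO was 0.00 there. The WT excess was thus seen in 1 set, the one whose WT library the exon was named for. Over all coding WT peaks of set 1 the median WT over KO was 0.82. The median log2 fold over input of all exonic Camk2a peaks was 0.16 in WT set 1, 0.04 in mir-486 KO set 1, −0.18 in WT set 2 and −0.15 in mir-486 KO set 2, below the medians of all exonic peaks in each library, which were 0.87, 0.38, 0.28 and 0.24.

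The 3′ UTR of Camk2a held 8, 17, 12 and 11 peaks in WT set 1, mir-486 KO set 1, WT set 2 and mir-486 KO set 2. In its first stretch, chr18:60984779-60985413, the highest log2 fold over input was 1.94 in WT set 1 (−log10 p 7.15), 0.68 in mir-486 KO set 1 (1.07), −0.05 in WT set 2 (0) and 0.43 in mir-486 KO set 2 (1.74). In the other stretch listed in all libraries, chr18:60985674-60986381, it was 0.29 in WT set 1 (0.18), 0.02 in mir-486 KO set 1 (0.026), 0.84 in WT set 2 (5.09) and 0.61 in mir-486 KO set 2 (2.02). A peak between them, at 1.11 (3.48), was listed in WT set 2 alone. WT held the highest value of each stretch, in a different set each time. After position 60986381, the end of the last stretch listed in all libraries, peaks were listed in set 1 alone, 2 in WT and 6 in mir-486 KO. Of the 6, 5 were higher in mir-486 KO than WT, and the highest had a KO over WT log2 of 2.84 (−log10 p 3.89), just under the log2 threshold. Over all 3′ UTR peaks of that list 66.0% were higher in mir-486 KO, so the count is close to the background. Set 2 listed 0 peaks there.

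These are total AGO2 lists, and the libraries amplified with a miR-486 primer were not analysed here. Of the direct folds at exonic Camk2a peaks called in WT, 5 of 14 were above 0 for WT over KO in set 1. Of all exonic WT peaks 80.0% were. In set 2 the count was 13 of 20, against 58.1%. At the KO peaks, sign turned, 12 of 25 were above 0 in set 1, against 48.1% of all exonic KO peaks. In set 2 it was 14 of 22, against 48.9%. The contrast of set 1 was thus seen at the WT peaks alone.

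In the other members the WT minus KO differences over input were smaller than in Camk2g. The mean WT minus KO difference of the exonic medians over input was 0.05 for Camk2a, 0.21 for Camk2b and 0.12 for Camk2d. Exact permutation p-values, two-sided with n = 2 per genotype, were 1, 0.33 and 0.667, and 1, 0.667 and 0.889 after adjustment over the 4 genes. For Camk2b both WT medians, 0.46 and 0.30, lay above both KO medians, 0.12 and 0.22, and for Camk2a and Camk2d the genotypes overlapped. With 2 libraries of each genotype no such test can pass 0.05. The median direct WT over KO fold of exonic peaks at the WT peaks of set 1 was −0.13 for Camk2a, 0.74 for Camk2b, 0.74 for Camk2d and 0.70 for Camk2g, against 0.74 for all exonic peaks. In set 2 the medians were 0.17, −0.16, 0.31 and −0.11, against 0.12. Camk2a, Camk2b and Camk2g therefore had opposite signs in the 2 sets, and Camk2d was higher in WT in both.

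**Figure D5:**
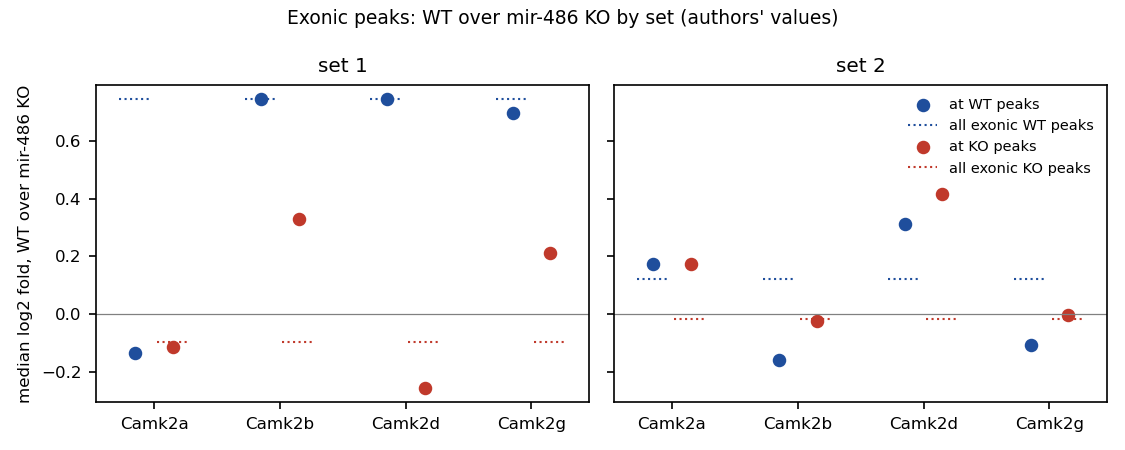
Median log2 fold of WT over mir-486 KO (y axis) of the exonic peaks of each gene, at the peaks called in WT (blue) and at those called in mir-486 KO (red, sign turned), for set 1 and set 2. Dotted lines give the same medians over all exonic peaks. In set 1 Camk2b, Camk2d and Camk2g lie near the line of all WT peaks at 0.74 and Camk2a at −0.13.

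The choice of peaks bears on these medians, as the medians at WT peaks and at KO peaks show. At the KO peaks the median WT over KO, sign turned, was −0.11 for Camk2a, 0.33 for Camk2b, −0.26 for Camk2d and 0.21 for Camk2g in set 1, against −0.10 for all exonic KO peaks. In set 2 it was 0.18, −0.02, 0.41 and −0.0036, against −0.02. Camk2a and Camk2d in set 2 were higher in WT at both choices of peaks, and so were Camk2b and Camk2g in set 1. Camk2a in set 1, and Camk2b and Camk2g in set 2, were lower in WT at both choices. The last of these were near the middle at the KO peaks, at −0.02 and −0.0036. Camk2d in set 1 changed sign with the choice. Many intronic peaks share a single value: 12 of the 15 intronic Camk2b peaks of mir-486 KO set 1, and 13 of the 26 of Camk2d, carried the same KO over WT log2 of 1.43.

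Exonic peaks of the family recurred between libraries more often than their intronic ones. Each count pools the peaks of both libraries of a pair, so a shared site enters from each side. The intervals treat these peaks as independent and are too narrow for that reason. Between the WT and mir-486 KO libraries of set 2, 214 of 231 exonic peaks (92.6%, 95% Wilson interval 88.5% to 95.4%) overlapped a peak of the other library, against 73.7% of all exonic peaks. For introns the count was 74 of 249 (29.7%, 24.4% to 35.7%), against 24.7%. Between the WT libraries of the 2 sets, 144 of 189 exonic peaks overlapped (76.2%, 69.6% to 81.7%), against 56.2%, and 7 of 140 intronic ones (5.00%, 2.44% to 9.96%), against 12.3%. Between the mir-486 KO libraries the counts were 145 of 210 exonic (69.0%, against 52.8%) and 29 of 182 intronic (15.9%, against 14.0%). Between the genotypes in set 1 they were 116 of 168 exonic (69.0%, against 53.9%) and 6 of 73 intronic (8.22%, against 14.4%). The exonic shares were above those of all peaks in each pair, and the intronic shares lay on either side.

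The genes around CaMKII had enriched peaks in a few cases and no direct genotype difference past the thresholds in both sets. Of all exonic peaks, 4.16% were enriched in WT set 1 and 1.04% in mir-486 KO set 1. In set 2 the shares were 1.78% in WT and 1.67% in mir-486 KO. All 3 calmodulin genes had exonic peaks in each library, and Calm2 alone among them had peaks past both thresholds. In that order of libraries, 3 of 9, 1 of 9, 1 of 12 and 1 of 10 of its exonic peaks passed. Its highest log2 fold over input was 4.63 to 5.35 by library. Of the 4 genes for CaMKII inhibitors and phosphatases and the 6 for other CaM kinases, 0 had an enriched exonic peak in any library. In the same order the inhibitors and phosphatases had 7, 13, 19 and 24 exonic peaks. The other CaM kinases had 9, 11, 35 and 22. At the shares above, a count of 0 on so few peaks is near the background. Among 6 class II deacetylase and MEF2 genes, Hdac4, a deacetylase that CaMKII phosphorylates, had enriched peaks in each library. In the same order these were 3 of 26, 2 of 23, 2 of 29 and 2 of 23 exonic peaks. Nfatc3, a transcription factor that calcineurin activates and 1 of 11 calcineurin and NFAT genes, had 2 of 13 in WT set 1. It had 2 of 13 in mir-486 KO set 1, 1 of 21 in WT set 2 and 1 of 21 in mir-486 KO set 2. Cacna1s, the voltage sensor of the T-tubule and 1 of 8 calcium handling genes, had 2 of 58, 0 of 61, 1 of 90 and 2 of 109. Those counts are near the shares over all exonic peaks.

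In the direct WT over KO list of set 1, 1 of 26 exonic Hdac4 peaks passed both thresholds. Sln, an inhibitor of the calcium pump, had 3 of 4 there, against 0.510% of all exonic peaks of that list. Ryr1, the release channel of the store, had 2 of 173 for KO over WT in set 1, against 0.109%. The median KO over WT of those 173 peaks was −0.90, so Ryr1 as a whole lay the other way. At its 178 WT peaks of set 1 the median WT over KO was 0.88. Sln and Ryr1 are named after their values were seen. In set 2 no gene of these lists had a peak past both thresholds in either direction. There Sln had 1 exonic peak per library, and its direction was the opposite of set 1. WT over KO was −1.10 at the WT peak, and KO over WT was 0.56 at the KO peak. By the Euclidean distance between the 4 per-library medians of exonic log2 fold over input, among 4271 genes with at least 5 exonic peaks in each library, the genes nearest to Camk2g were Vcp (0.16), Neb (0.17) and Tnxb (0.21). Nearest to Camk2b were Clasp1 (0.03), Col3a1 (0.11) and Iars2 (0.12), to Camk2d Anapc2 (0.03), Retsat (0.05) and Tmed7 (0.05), and to Camk2a Mkrn2 (0.17), Limch1 (0.20) and Sec13 (0.22).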

How the data were processed

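The authors made the deposited lists from eCLIP reads. Their notes name UMI-tools, cutadapt, STAR, SAMtools and FastQC, with GRCm38, and their methods list the CLIPper peak caller and scripts for input normalization of peaks. Their methods list versions of most of these tools, which are not repeated here. Per the deposited files, each peak carries a −log10 p and a log2 fold over input, or of one genotype's library over the other. Negative folds carry a score of 0, and scores stop at 400.

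The 4 genes, the lists and the tests were chosen with earlier results of these data known. Peaks were assigned by strand to GENCODE M21 (the labels name M24 of the same assembly) with coordinates counted from 1, and the region was that of the peak midpoint, in the order CDS, UTR, noncoding exon, intron. Named peaks passed both thresholds, were among the highest of a gene and library, or belonged to stretches (merged peaks) listed in all 4 libraries. Genes outside the family were named where a peak passed both thresholds in both libraries of a genotype. Words complementary to bases 2 to 8 of miR-206 (also miR-1), miR-133, let-7, miR-29, miR-30, miR-26 and miR-22 were taken from RefSeq mature sequences (GRCm38.p6) and searched on the transcribed strand of GRCm38, and miR-486 and miR-378a were not searched. Medians were compared with scipy 1.17.1, overlaps over all peaks with bedtools 2.31.1, and the functions were tested on simulated data. Read depth is unknown, so no floor is given. Whether the libraries are biological replicates is unstated, so p-values measure only the spread between them. Alternatives are given in the closing section.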

Additional observations from a re-analysis of the deposited data

How the results depend on the processing

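Of 156 recomputed values for 35 results, 121 kept their direction and stayed within the spread set for them, 33 moved and 2 reversed. With a log2 fold of at least 1 the enriched peaks of the 4 genes numbered 7 in WT set 1, 1 in mir-486 KO set 1, 5 in WT set 2 and 4 in mir-486 KO set 2, and direct WT over KO peaks of set 1 numbered 4. With a log2 fold of at least 4 there were 0 in WT set 1 and 0 in mir-486 KO set 2. A −log10 p of at least 5 left 1, 1 and 0 in WT set 1, WT set 2 and mir-486 KO set 2, and 0 direct KO over WT peaks in set 1, and a −log10 p of at least 2 gave 1 direct WT over KO peak in set 1. Merging adjoining peaks gave 1 in WT set 2 and 1 in mir-486 KO set 2.

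The WT minus KO difference over input of Camk2d became −0.0051 with intronic peaks included. With 1 set left out, this difference ranged from −0.025 to 0.12 for Camk2a, 0.08 to 0.34 for Camk2b, 0.08 to 0.16 for Camk2d and 0.17 to 1.59 for Camk2g; without set 1 that of Camk2a turned negative and that of Camk2g fell to 0.17. Less the median of all exonic peaks, the direct medians of set 1 at WT peaks were −0.88 for Camk2a, 0 for Camk2b, 0 for Camk2d and −0.050 for Camk2g. Taken at the KO peaks, with nothing subtracted, the direct median of Camk2d in set 1 was −0.26.

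Requiring an overlap of 50% of both peaks lowered the shares shared to 48.7% between WT sets, 39.0% between KO sets, 46.4% between genotypes in set 1 and 71.0% in set 2. Assigning region by the 5′ end gave intron shares of 32.6%, 50.3%, 64.6% and 60.5% in WT set 1, mir-486 KO set 1, WT set 2 and mir-486 KO set 2. A shorter word of 6 nt gave 6 3′ UTR peaks for miR-206, 3 for miR-133, 16 for miR-29 and 2 for miR-26, and a word of 8 nt gave 0 for miR-29 and 0 for miR-22. The cause of these changes was not tested, apart from the thresholds, word lengths and dropped sets, which act by construction.

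The set number as a replicate block was chosen after seeing the data, as was the use of coding transcripts alone. With the block the differences stayed at 0.05, 0.21, 0.12 and 0.88 for Camk2a, Camk2b, Camk2d and Camk2g, with exact paired permutation p-values of 1, 0.5, 0.5 and 0.5, where 0.5 is the smallest that 2 pairs allow. Deviations from the genotype means correlated at 0.108 between libraries of a set over 4271 genes. Library titles of a set share a prefix and the authors made the direct lists within sets, but no label says that the libraries of a set share animals or a day, so the comparison was kept unpaired.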
